A study of Homo sapiens with 6 samples.

Results

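The genes described here are 10 long noncoding RNAs that are retained in the nucleus, respond to stress or carry small RNAs, NEAT1, MALAT1, LUCAT1, PVT1, MIR22HG, MIR31HG, MIR155HG, NORAD, DANCR and GAS5. They were given by name, with earlier results of these data known, and all 10 were found among the 58174 genes of the deposited tables. SiHa, an established human cell line of cervical squamous cell carcinoma, was transfected with GV230-BRCA1 plasmid (OV-BRCA1 group, 3 samples) or with GV230 plasmid alone (NC group, 3 samples) and harvested after 48 h. Both groups therefore carried the GV230 backbone and the transfection reagent, and the promoter that drives BRCA1 is not given in the sources used here. The 3 samples of each group were biological replicates. mRNA was captured on beads, and the deposited values are FPKM, fragments per kilobase of transcript and per M mapped fragments, a level per length. Levels of members with and without a poly(A) tail may not be comparable after bead capture.

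Long noncoding RNAs are transcripts without a long open reading frame. NEAT1 is the scaffold of paraspeckles, nuclear bodies that hold RNA-binding proteins, and only its long form builds them. MALAT1 gathers in nuclear speckles, where splicing factors are stored. GAS5 and DANCR host small nucleolar RNAs (snoRNAs) in their introns, and GAS5 RNA is degraded by nonsense-mediated decay while it is being translated. MIR22HG, MIR31HG and MIR155HG are the host transcripts of miR-22, miR-31 and miR-155, and PVT1 holds several microRNA genes next to MYC. NORAD binds Pumilio proteins in the cytoplasm and is induced by DNA damage. LUCAT1 responds to stress and to inflammatory signals.

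The parts of these RNAs that set them apart can be read from their sequences. MALAT1 and NEAT1 are not polyadenylated at the end of their long forms but are cut there, and the mature end is kept by a triple helix of 2 U-rich stretches and 1 A-rich stretch. In GENCODE 29 transcripts (GRCh38), MALAT1-202 holds this element at chr11:65506031-65506115 and NEAT1-202 at chr11:65445453-65445539, both on the plus strand in a single exon, 5′ to 3′, with TTTCTTTT, TTTGCTTT and AAAGCAAA in capitals:

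MALAT1-202: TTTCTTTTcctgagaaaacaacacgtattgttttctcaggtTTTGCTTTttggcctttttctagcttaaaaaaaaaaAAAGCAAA

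NEAT1-202: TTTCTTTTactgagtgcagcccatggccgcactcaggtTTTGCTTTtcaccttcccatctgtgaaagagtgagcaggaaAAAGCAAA

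Among 57133 genes with a transcript sequence, only these 2 held the 3 motifs in that order with at most 60 bases between neighbours. NORAD-201, 5339 bases in 1 exon, held 15 matches to TGTANATA, the element that Pumilio proteins bind. Of 535 other long noncoding transcripts of 4000 to 7000 bases, the median held 0 matches and 2 held at least as many as NORAD. NORAD holds 3 places where a pair of matches lies side by side, and the one shown is chr20:36048296-36048332 (minus strand, matches in capitals):

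NORAD-201: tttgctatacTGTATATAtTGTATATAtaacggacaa

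The mature microRNAs of the 3 host transcripts, from RefSeq, are shown with the seed (bases 2 to 8) in capitals. The 3 seeds differ. They lie at chr21:25573983-25574006 (plus strand), chr9:21512158-21512178 (minus) and chr17:1713914-1713935 (minus) of GRCh38.

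miR-155-5p: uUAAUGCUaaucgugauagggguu

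miR-31-5p: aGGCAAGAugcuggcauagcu

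miR-22-3p: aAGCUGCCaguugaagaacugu

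BRCA1 was checked first. Its level was 35.7, 40.8 and 34.9 FPKM in OV-BRCA1 samples against 20.1, 14.9 and 21.7 FPKM in NC samples, a log2 fold change of 0.95 ± 0.14 (SE, adjusted p = 0.00373, limma with Benjamini-Hochberg). The groups did not overlap, but BRCA1 was not called, being short of the log2 fold change of 1 used for calls below. Plasmid and cellular transcripts cannot be told apart here. The depth, estimated from the value of 1 fragment, was 13.64 to 19.12 M fragments per sample, lowest in OV-BRCA1 sample 3. Of the 13 epithelial markers, KRT7 (1544 to 1732 FPKM), KRT17 (953 to 1442 FPKM), KRT8, KRT18, SFN and PERP were abundant, and CDH1, KRT19, KRT14, KRT5 and TP63 were at 0.92 FPKM or less in every sample. Of 9 tested, 4 were higher and 2 lower by adjusted p, with EPCAM called higher (1.12), and their summed level was 3400 to 3560 FPKM in OV-BRCA1 and 3820 to 3960 FPKM in NC samples. Of 12 markers of blood, endothelial, stromal and neural cells, 9 stayed under 0.5 FPKM in all samples and PTPRC was at 0. The summed level of those tested was 8.1 to 9.77 FPKM in OV-BRCA1 and 18.6 to 21.0 FPKM in NC samples, made of CD14 (6.65 to 9.04 and 17.8 to 20.4 FPKM) and PECAM1. The part of either marker list in the results was not tested.

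**Figure D1:**
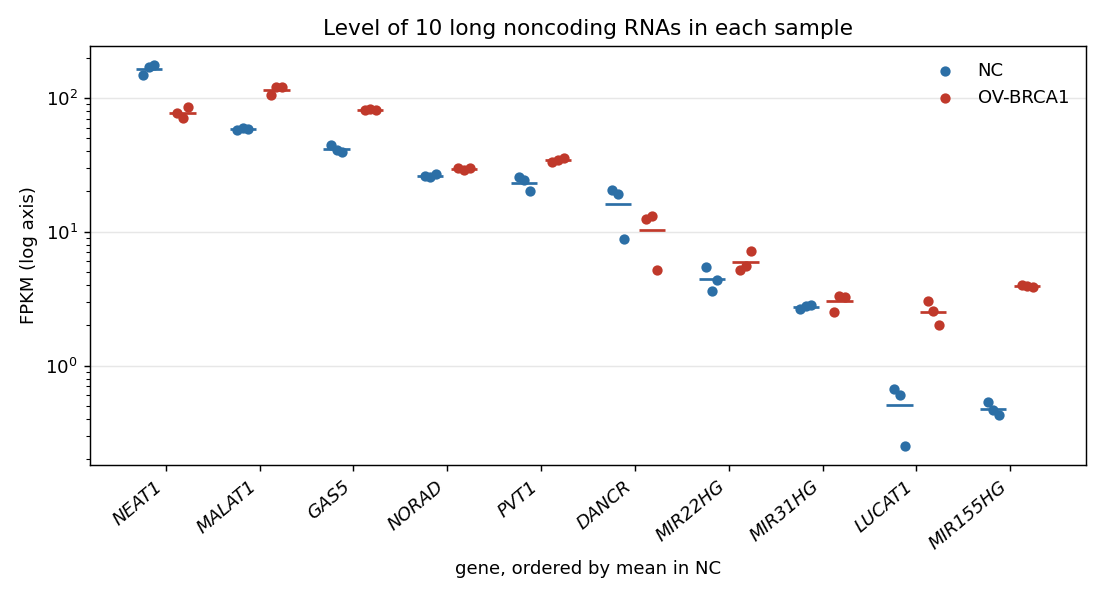
FPKM (log axis) of the 10 long noncoding RNAs, ordered by their mean in the NC group; each point is 1 sample and each bar the group mean (3 samples). NEAT1 is the highest in NC (148 to 176 FPKM) and MALAT1 in OV-BRCA1 (106 to 121 FPKM), and MIR155HG shows the widest gap between the groups.

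In NC samples the order by mean FPKM was NEAT1, MALAT1, GAS5, NORAD, PVT1, DANCR, MIR22HG, MIR31HG, LUCAT1 and MIR155HG. Neighbouring ranges overlapped only between PVT1 and DANCR and between LUCAT1 and MIR155HG. In OV-BRCA1 samples MALAT1 was highest (115.5 ± 8.47 FPKM, SD, n = 3), ahead of GAS5 (81.7 ± 0.513) and NEAT1 (77.6 ± 7.22), whose ranges overlapped. PVT1, NORAD, DANCR, MIR22HG, MIR155HG, MIR31HG and LUCAT1 followed, with overlapping ranges between DANCR and MIR22HG and between MIR31HG and LUCAT1. NEAT1, first in NC, came after MALAT1 and GAS5 in OV-BRCA1, and MIR155HG moved from the last place to above MIR31HG and LUCAT1.

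All 10 members passed the filter of FPKM at least 0.5 in at least 3 samples and were tested. MIR155HG and LUCAT1 passed it only through their OV-BRCA1 samples. In NC samples they had 0.532, 0.464 and 0.426 FPKM and 0.668, 0.606 and 0.251 FPKM. A call needed an adjusted p below 0.05 together with a log2 fold change beyond 1 or -1. MIR155HG and LUCAT1 were called higher and NEAT1 was called lower. The other 7 were not called. Of all 16321 genes tested, 2.89% were called higher and 1.1% lower, and of 2393 long noncoding RNA genes tested, 2.72% and 1.21%. By adjusted p alone, 6 members were higher and 1 lower, against 16.4% and 18.9% of all genes. The groups did not overlap in 7 of 10 members, against 50.8% of all genes. The median log2 fold change was 0.45 over the members and -0.04 over all genes tested.

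**Figure D2:**
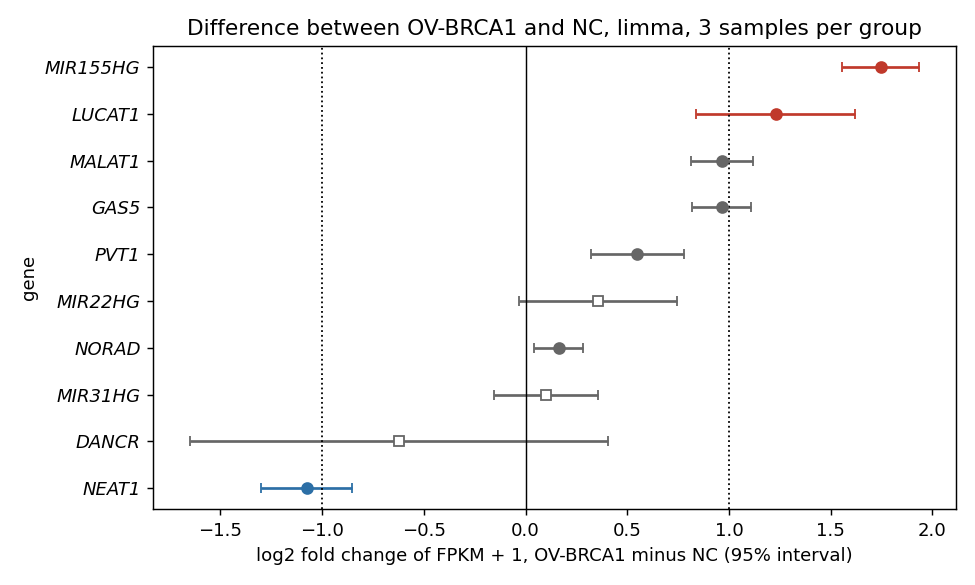
Log2 fold change of FPKM + 1 (OV-BRCA1 minus NC) with its 95% interval from limma for each member (3 samples per group); filled circles have an adjusted p below 0.05, open squares do not, dotted lines mark 1 and -1, red is called higher and blue called lower. MIR155HG (1.75) and LUCAT1 (1.23) lie beyond 1, NEAT1 (-1.08) beyond -1, and MALAT1 (0.97) and GAS5 (0.96) just inside.

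NEAT1 (ENSG00000245532, chr11:65422774-65445540, plus strand) had 76.7, 70.8 and 85.2 FPKM in OV-BRCA1 samples against 148.4, 169.3 and 176.2 FPKM in NC samples. No OV-BRCA1 value reached the lowest NC value. The difference on the log2 scale was -1.08 ± 0.09 (SE, 95% interval -1.30 to -0.85, adjusted p = 4.26e-04, limma with Benjamini-Hochberg), a mean 2.12 times higher in NC. Of the 5 transcripts, which all passed the filter, all had a log2 fold change below 0, 3 with an adjusted p below 0.05 and 2 of them called. Calls among all 50925 transcripts tested were 1.46% higher and 0.866% lower.

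The 5 NEAT1 transcripts did not differ by the same amount. The long form, NEAT1-202 (22743 bases, 1 exon), had 57.5, 54.5 and 62.7 FPKM in OV-BRCA1 and 88.9, 91.3 and 92.6 FPKM in NC samples, a log2 fold change of -0.64 ± 0.07 (adjusted p = 0.00919, limma with Benjamini-Hochberg), which is below the fold required for a call. NEAT1-205, at 65425580 to 65426385 in the deposited positions, had 10.0, 8.16 and 14.4 FPKM in OV-BRCA1 and 36.6, 57.5 and 62.0 FPKM in NC samples and was called (-2.16 ± 0.28, adjusted p = 0.0148, limma with Benjamini-Hochberg). Without any 1 of OV-BRCA1 samples 1 or 2 or NC samples 2 or 3, its adjusted p was 0.051 to 0.0651. The ratio of the 4 shorter transcripts summed to the long one was 0.335, 0.301 and 0.36 in OV-BRCA1 and 0.67, 0.854 and 0.904 in NC samples. These ranges did not overlap (exact two-sided permutation p = 0.1, the smallest that 3 against 3 samples allow).

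**Figure D3:**
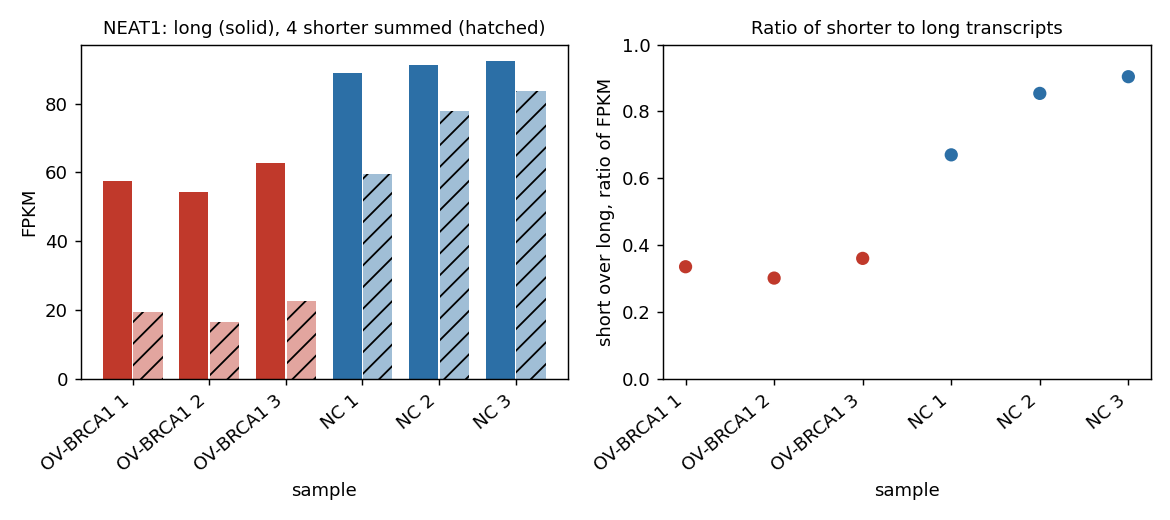
Left, FPKM of the long NEAT1 transcript (solid bars) and of the 4 shorter ones summed (hatched bars) in each sample; right, their ratio, with OV-BRCA1 samples in red and NC samples in blue. The ratio is 0.301 to 0.36 in OV-BRCA1 and 0.67 to 0.904 in NC, and the long form is also lower in OV-BRCA1.

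The shorter transcripts overlap the 5′ part of the long one, so the split between them is an estimate by the authors' tool. FPKM gives a short transcript the weight of a long one, and the long form made up 95.6% to 97.9% of the estimated NEAT1 fragments. Counted as fragments per M, an alternative chosen after the data were seen, the gene differed by -0.68 (adjusted p = 2.82e-04, limma with Benjamini-Hochberg) and was not called. Lengths are those of GENCODE 29, and 4 of the 5 NEAT1 transcripts have other positions in the deposited files, so this weight is approximate.

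MALAT1 (ENSG00000251562, chr11:65497688-65506516, plus strand) lies downstream of NEAT1 and went the other way. It had 105.7, 120.5 and 120.2 FPKM in OV-BRCA1 samples against 57.8, 59.3 and 58.3 FPKM in NC samples. The lowest OV-BRCA1 value exceeded the highest NC value, with a log2 fold change of 0.97 ± 0.06 (SE, 95% interval 0.82 to 1.12, adjusted p = 1.45e-04, limma with Benjamini-Hochberg). This missed the fold threshold, and without OV-BRCA1 sample 1 it was 1.03 and passed. Most of the level, 85.9% in OV-BRCA1 and 85.4% in NC, was the single-exon MALAT1-202, which differed by 0.97 (adjusted p = 0.00422, limma with Benjamini-Hochberg). Of 8 transcripts tested, 7 had a log2 fold change above 0.

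The libraries also differed in some RNAs that end without a poly(A) tail, named here after their values were seen. They were picked and do not stand for all RNAs without a tail. RN7SK, which controls the elongation factor P-TEFb, had 23.5, 29.9 and 30.0 FPKM in OV-BRCA1 and 2.41, 1.66 and 3.81 FPKM in NC samples. RPPH1, the RNA of RNase P, which cuts the MALAT1 and NEAT1 ends shown above, had 15.9, 15.6 and 13.2 FPKM in OV-BRCA1 and 0.193, 0.814 and 1.66 FPKM in NC samples. RN7SL1, RN7SL2 and RMRP were higher as well, with log2 fold changes of 3.14, 4.72 and 4.40. MALAT1 was higher with these RNAs, and the long form of NEAT1, which has the same kind of end, was lower. The part of the tail in either result was not tested.

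MIR155HG (ENSG00000234883, chr21:25561909-25575168, plus strand, 4 exons) showed the largest log2 fold change of the members. Its level was 4.001, 3.93 and 3.88 FPKM in OV-BRCA1 samples against 0.532, 0.464 and 0.426 FPKM in NC samples. The groups were far apart beside a spread (SD) of 0.0584 and 0.0539 FPKM. The log2 fold change was 1.75 ± 0.08 (SE, adjusted p = 3.18e-05, limma with Benjamini-Hochberg), and the ratio of means was 8.31, larger than the log2 value because 1 was added to each FPKM. Behind these values stood an estimated 13.0 to 13.5 fragments in each NC library and 84.8 to 101.3 in each OV-BRCA1 library.

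LUCAT1 (ENSG00000248323, minus strand, chr5:91303029-91314402 in the deposited positions) was the other member called higher. Its level was 3.03, 2.57 and 2.001 FPKM in OV-BRCA1 samples against 0.668, 0.606 and 0.251 FPKM in NC samples. In FPKM the lowest OV-BRCA1 sample was above the highest NC sample. In estimated fragments (104.6, 74.6 and 20.1 against 25.8, 25.7 and 13.7), OV-BRCA1 sample 3 lay inside the NC range. The log2 fold change was 1.23 ± 0.16 (SE, 95% interval 0.84 to 1.62, adjusted p = 0.00219, limma with Benjamini-Hochberg), and the ratio of means was 4.99.

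The LUCAT1 level moved between transcripts from sample to sample. In the OV-BRCA1 group, sample 3 listed LUCAT1-203 at 0 where samples 1 and 2 gave 1.92 and 1.14 FPKM, while LUCAT1-201 had 1.11, 1.04 and 2.001 FPKM. LUCAT1-201 was called (log2 fold change 1.06, adjusted p = 0.0362, limma with Benjamini-Hochberg), but lost its call without any 1 of the 6 samples. In fragments per M the gene differed by 1.10 with an adjusted p of 0.0883 (limma with Benjamini-Hochberg) and was not called. All 3 of its transcripts have other positions in the files than in GENCODE 29, so the lengths behind that value are approximate.

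Both members called higher have an AP-1 element, TGANTCA, near a RefSeq start. In the RefSeq table of 35116 promoters (GRCh38.p14, 250 bases before to 50 after the start), 8 of the 10 members had an entry. NEAT1, the member called lower, and PVT1 had none and were not searched. For LUCAT1 the RefSeq start is the 5′ end of the gene in the deposited positions. For MIR155HG it lies 236 bases inside the gene, so every MIR155HG match given here lies after the 5′ end of the measured transcript. The search covered both strands for AP-1 (TGANTCA), the interferon element ISRE (core GAAANNGAA), the STAT element GAS (TTCNNNGAA), the NF-kB consensus, CRE (TGACGTCA), the E-box (CACGTG) and the TATA box (TATAAA). MALAT1, GAS5 and NORAD, higher by adjusted p but not called, had no AP-1 match. AP-1 was found in 2 of these 8 members, MIR155HG at position -60 and LUCAT1 at position -52 from the RefSeq start. It was found in 7.71% of all promoters. The promoters are shown with that match in capitals, for chr21:25561895-25562194 (plus strand) and chr5:91314353-91314652 (minus strand):

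MIR155HG: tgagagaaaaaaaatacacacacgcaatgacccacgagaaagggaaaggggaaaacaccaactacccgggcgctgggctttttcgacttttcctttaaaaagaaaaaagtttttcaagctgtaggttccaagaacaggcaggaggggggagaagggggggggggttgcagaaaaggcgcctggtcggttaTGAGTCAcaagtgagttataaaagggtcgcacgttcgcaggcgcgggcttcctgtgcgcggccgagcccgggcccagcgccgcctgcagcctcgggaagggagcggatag

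LUCAT1: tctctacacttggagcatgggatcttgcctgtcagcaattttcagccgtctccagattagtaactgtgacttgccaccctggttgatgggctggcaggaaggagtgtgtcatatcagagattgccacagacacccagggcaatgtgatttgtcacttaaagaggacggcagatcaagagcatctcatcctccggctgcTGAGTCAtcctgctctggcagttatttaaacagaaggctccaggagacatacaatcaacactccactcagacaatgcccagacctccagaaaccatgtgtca

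The MIR155HG window also held the ISRE core at -213 (8.11% of all promoters), GAS at -125 (7.66%) and a TATA box at -44 (11.5%). No match overlapped another. GAS was found in DANCR too, the TATA box in MALAT1 and the E-box in NORAD (7.26% of promoters). NF-kB and CRE elements were in none of these windows and in 11.3% and 1.85% of all promoters. A match is a string of letters and not a measured site.

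GAS5 (ENSG00000234741, chr1:173863900-173868882, minus strand, 29 transcripts) differed about as much as MALAT1. It had 81.9, 82.2 and 81.2 FPKM in OV-BRCA1 samples against 44.8, 40.5 and 39.2 FPKM in NC samples. The groups were apart, with the OV-BRCA1 samples within an SD of 0.513 FPKM. The log2 fold change was 0.96 ± 0.06 (SE, adjusted p = 1.28e-04, limma with Benjamini-Hochberg), which is just below the fold required, and it was 1.02 without NC sample 1. Of 21 transcripts tested, 19 had a log2 fold change above 0, and 2 were called higher, among them GAS5-205 (1.27, adjusted p = 0.0331, limma with Benjamini-Hochberg). The call of GAS5-205 was lost without any 1 of the 6 samples. GAS5-AS1, on the opposite strand, shares 42 exonic bases with GAS5 and was under 2 FPKM in all samples, and the use of strand is not given in the sources used here.

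DANCR (ENSG00000226950, chr4:52712404-52720351, plus strand), a snoRNA host known for keeping progenitor cells undifferentiated, was the most uneven member. It had 12.4, 13.2 and 5.19 FPKM in OV-BRCA1 samples against 20.6, 19.2 and 8.79 FPKM in NC samples. Sample 3 was low in both groups, and the groups overlapped. The log2 fold change was -0.62 with a 95% interval of -1.65 to 0.40 (adjusted p = 0.299, limma with Benjamini-Hochberg). It was -0.24 without OV-BRCA1 sample 3 and -0.99 without NC sample 3, so neither a fall beyond the threshold nor no change could be told. DANCR-201, the main transcript, showed the same low values (3.08 and 7.21 FPKM in the samples numbered 3).

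PVT1 (ENSG00000249859, chr8:127794533-128101253, plus strand) had 33.0, 34.4 and 35.6 FPKM in OV-BRCA1 samples against 25.5, 24.2 and 20.1 FPKM in NC samples. The groups were apart, with a log2 fold change of 0.55 ± 0.10 (SE, adjusted p = 0.00627, limma with Benjamini-Hochberg), below the fold required. PVT1-209 differed by 0.90 (adjusted p = 0.0119) and PVT1-217 by 0.35 (adjusted p = 0.283, limma with Benjamini-Hochberg), and the difference between them was not tested. Without single samples the adjusted p of PVT1-209 was 0.0379 to 0.053, above 0.05 without OV-BRCA1 sample 2, NC sample 1 or NC sample 3. MYC, the nearest tested coding gene on the 5′ side of PVT1, had 16.7, 2.42 and 11.4 FPKM in OV-BRCA1 and 10.5, 1.09 and 1.00 FPKM in NC samples, a spread too wide for a direction (adjusted p = 0.287, limma with Benjamini-Hochberg).

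NORAD (ENSG00000260032, chr20:36045622-36050960, minus strand) had the smallest standard error of the members, with 29.9, 28.7 and 29.8 FPKM in OV-BRCA1 samples against 26.2, 25.6 and 26.8 FPKM in NC samples. The groups did not overlap although the difference was small. The log2 fold change was 0.16 ± 0.05 (SE, 95% interval 0.04 to 0.28, adjusted p = 0.0447, limma with Benjamini-Hochberg), and leaving out any 1 sample gave an adjusted p of 0.0681 to 0.12. The interval lies far inside the threshold of 1 in either direction.

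MIR22HG (ENSG00000186594, chr17:1711493-1717174, minus strand), whose microRNA restrains growth in several tumours, had 5.17, 5.55 and 7.16 FPKM in OV-BRCA1 samples against 5.42, 3.60 and 4.34 FPKM in NC samples. The groups overlapped, with a log2 fold change of 0.35 (95% interval -0.03 to 0.74, adjusted p = 0.135, limma with Benjamini-Hochberg). In fragments per M the difference was -0.05. MIR22HG-201 had 2.71 ± 0.53 FPKM in OV-BRCA1 against 0.929 ± 0.80 FPKM in NC (SD, n = 3) and MIR22HG-208 0.873 ± 0.583 against 2.26 ± 1.17 FPKM. Neither passed the test (limma, Benjamini-Hochberg adjusted p = 0.136 and 0.321).

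MIR31HG (ENSG00000171889, chr9:21455642-21559669, minus strand) had 2.51, 3.34 and 3.25 FPKM in OV-BRCA1 samples against 2.63, 2.79 and 2.81 FPKM in NC samples. The groups overlapped, and the log2 fold change of 0.10 had a 95% interval of -0.16 to 0.36 (adjusted p = 0.503, limma with Benjamini-Hochberg). Of its 745 exonic bases, 303 lie opposite the pseudogene IFNWP19, which had 1.22 to 3.10 FPKM, and the reads of that stretch cannot be assigned to a strand here. The 3 microRNA hosts thus ranged from a difference of 0.10 in MIR31HG to 1.75 in MIR155HG.

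The small RNA genes read inside NEAT1, PVT1, DANCR and the 3 microRNA hosts had low values, and mRNA libraries are not made for RNAs of microRNA size. MIR31 was listed at 0 in all samples and MIR155 in all but OV-BRCA1 sample 2 (0.149 FPKM), while MIR22 reached 3.02 FPKM. SNORA26, the snoRNA in DANCR, had 1.40 to 3.22 FPKM and did not pass the test (log2 fold change -0.24, adjusted p = 0.551, limma with Benjamini-Hochberg). RNU1-106P, a U1 snRNA pseudogene within PVT1, had 1.37, 3.29 and 3.16 FPKM in OV-BRCA1 against 0.594, 1.03 and 0.957 FPKM in NC samples (log2 fold change 0.91, adjusted p = 0.0316, limma with Benjamini-Hochberg), which is uncertain because U1 genes have many near-identical copies. The snoRNAs of GAS5 were not analysed here, and levels of the mature microRNAs were not measured.

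None of the nearest tested coding genes on either side of a member was called. ARRDC3, an arrestin-like adaptor 54.2 kb from LUCAT1, had 26.7, 26.5 and 28.0 FPKM in OV-BRCA1 and 15.5, 15.2 and 14.8 FPKM in NC samples. Its log2 fold change was 0.80 ± 0.05 (SE, adjusted p = 1.71e-04, limma with Benjamini-Hochberg). LYSMD3, 525 kb from LUCAT1 on the other side, differed by 0.70. MRPL39, a mitochondrial ribosomal protein, lies 10.5 kb from MIR155HG and differed by 0.29. C21orf91, 7740 kb away on the other side, differed by 0.74. FRMD8, on the 5′ side of both NEAT1 and MALAT1, differed by -0.50 (adjusted p = 0.121, limma with Benjamini-Hochberg). TLCD2, 1.05 kb from MIR22HG, was lower (-0.63), while SERPINF1 on the other side differed by -0.03. The distances on the 2 sides of the 10 members reached 7740 kb.

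The long noncoding genes whose pattern over the 6 samples was closest to the 2 members with the largest differences were found by the root mean square distance of centred log2(FPKM + 1). For MIR155HG these were AC005006.1 (0.08), CYTOR (0.08) and MORC2-AS1 (0.13), with log2 fold changes of 1.75, 1.74 and 1.90. For LUCAT1 they were AC097478.1 (0.11), AC004264.1 (0.15) and AL138828.1 (0.15), with log2 fold changes of 1.14, 1.27 and 1.07. These distances are a description over 6 samples, and similar fold changes follow from choosing genes by them. AC005006.1 and MORC2-AS1, at most 0.0871 and 0.265 FPKM in NC samples, passed the filter only through their OV-BRCA1 samples.

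Genes that work with the members were read from the same fit, in 12 lists, with members left out. The lists were chosen with earlier results of these data known, so their counts are a description. Counts in each list stand beside 16.4% higher and 18.9% lower by adjusted p among all genes tested, of which 7540 of 16321 had a log2 fold change above 0. Genes for proteins of paraspeckles and nuclear speckles were more often lower than higher. Of 33 paraspeckle genes tested, 11 were lower and 1 higher by adjusted p, with a median log2 fold change of -0.17, and 5 of the 33 were above 0. TAF15, an RNA-binding protein, had 56.4, 58.3 and 68.0 FPKM in OV-BRCA1 and 105.6, 106.8 and 97.5 FPKM in NC samples. HNRNPH1, a splicing regulator, and CPSF7, of the cleavage factor for 3′ ends, differed by -0.52 and -0.50. RBM12, named after its values were seen, was the single gene called (1.10), against 2.89% of all genes. Of 24 nuclear speckle genes 12 were lower and 0 higher, with a median of -0.22. SNRNP70, of the U1 snRNP, had 87.2, 88.0 and 83.6 FPKM in OV-BRCA1 and 120.4, 120.0 and 120.6 FPKM in NC samples. PNISR and SRSF6 differed by -0.48 and -0.37, and none of the 24 was called.

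**Figure D4:**
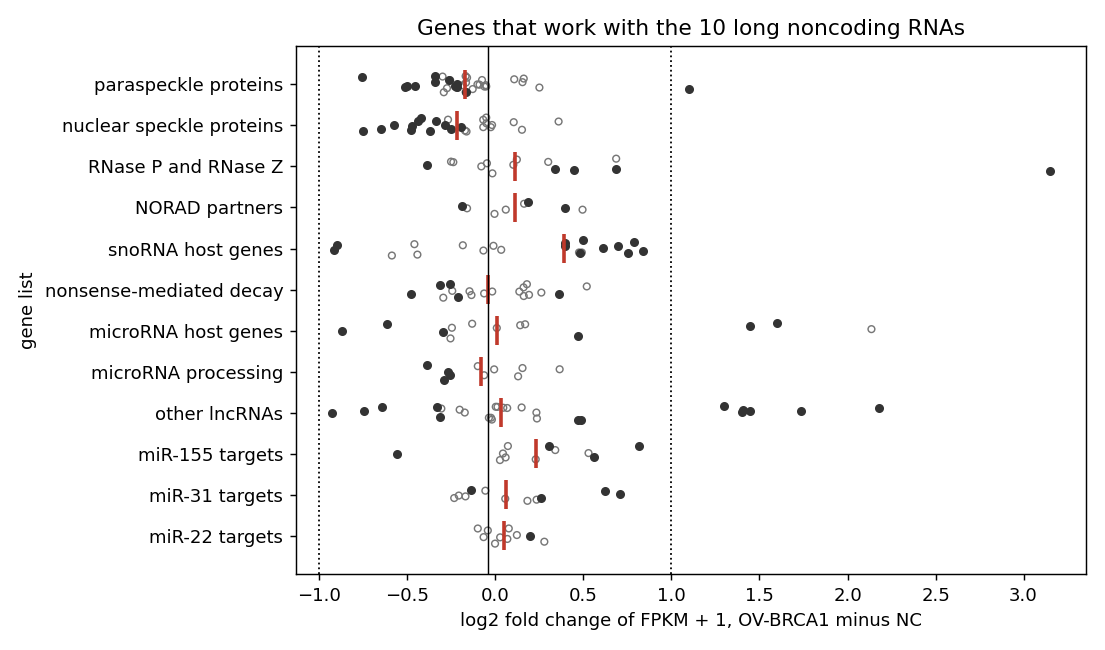
Log2 fold change of FPKM + 1 (OV-BRCA1 minus NC) of each tested gene in the 12 lists; filled points have an adjusted p below 0.05, red bars are list medians, the solid line is the median of all genes tested (-0.04) and dotted lines mark 1 and -1. Most paraspeckle and nuclear speckle genes lie left of 0, the snoRNA hosts lie on both sides of 0, and 6 of the other lncRNAs lie right of 1.

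The 20 snoRNA host genes tested beside GAS5 and DANCR did not move as 1 group. By adjusted p, 9 were higher and 2 lower, none was called, and the median log2 fold change was 0.39. SNHG3 had 40.7, 43.5 and 37.4 FPKM in OV-BRCA1 and 22.9, 24.7 and 26.3 FPKM in NC samples (0.70 ± 0.08, SE). SNHG9 went the other way, with 46.9, 43.9 and 53.3 FPKM in OV-BRCA1 and 80.5, 93.9 and 97.3 FPKM in NC samples (-0.90 ± 0.10), as did SNHG19 (-0.91). Among 18 factors of nonsense-mediated decay, which degrades GAS5 RNA, 1 was higher and 4 were lower, with a median of -0.04. UPF3A differed by -0.48, SMG9 by -0.31 and UPF2 by 0.36.

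Of 13 other microRNA host genes tested, 3 were higher and 3 lower by adjusted p, with a median of 0.01. MIR4435-2HG had 132.0, 126.1 and 129.4 FPKM in OV-BRCA1 and 46.4, 48.4 and 45.6 FPKM in NC samples and was called (1.45), as was MIR100HG (1.60). MIR17HG, host of a growth-promoting cluster, differed by 0.47. Genes of microRNA processing were lower where they passed, 4 of 10, with DGCR8 at -0.39, DROSHA, the nuclear nuclease, at -0.27 and TARBP2 at -0.26. Of 26 other known long noncoding RNAs tested, 8 were higher and 5 lower by adjusted p. Of the 26, 6 were called higher, against 2.72% of all long noncoding RNA genes. The list was chosen with earlier results of these data known, so this share cannot be read as an excess. MIR4435-2HG stands in this list and among the microRNA hosts, so its call is counted in both. CYTOR had 202.8, 212.0 and 224.0 FPKM in OV-BRCA1 and 60.2, 64.1 and 65.5 FPKM in NC samples (1.74 ± 0.06, SE). MIR4435-2HG and CYTOR are copies of each other, so how reads were split between them is uncertain. HCP5, a transcript of the HLA region, had 13.4, 12.4 and 13.0 FPKM against 1.97, 2.10 and 2.17 FPKM (2.18 ± 0.07). LINC-PINT, NRIR and PSMB8-AS1, named after their values were seen, made up the rest of the 6. NRIR, at 0.0803, 0 and 0 FPKM in NC samples, passed the filter only through its OV-BRCA1 samples.

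Genes known as targets of the 3 microRNAs were read in the same way. Of 11 tested miR-155 targets, 3 were higher and 1 lower by adjusted p, 10 had a log2 fold change above 0, and the median was 0.23. BACH1, a repressor of antioxidant genes, differed by 0.56, SOCS1, an inhibitor of cytokine signalling, by 0.81 and TP53INP1 by -0.56. Of 11 miR-31 targets 3 were higher and 1 lower (median 0.06, 6 above 0), with PPP2R2A at 0.62, ITGA5 at 0.71 and LATS2 at 0.26. Of 10 miR-22 targets 1 was higher and 0 lower (median 0.05, 6 above 0), with CDKN1A at 0.19, and SIRT1 and ERBB3 did not pass (limma, Benjamini-Hochberg adjusted p = 0.311 and 0.332).

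The remaining lists concern the ends of MALAT1 and NEAT1 and the partners of NORAD. Of 14 genes of RNase P and RNase Z, the enzymes that make those ends, 4 were higher and 1 lower by adjusted p, with a median of 0.11. RPPH1 (3.15), described above, was the single gene called, and the protein subunits RPP25 and RPP40 differed by 0.45 and 0.68. Of 8 NORAD partners 2 were higher and 1 lower, with a median of 0.11. TOP1, a DNA topoisomerase, had 45.7, 47.4 and 48.2 FPKM in OV-BRCA1 and 35.6, 35.6 and 35.5 FPKM in NC samples (0.40 ± 0.05, SE), KHDRBS1 differed by -0.19 and PRPF19 by 0.19. PUM2, a Pumilio protein that binds the element shown above, did not pass (limma, Benjamini-Hochberg adjusted p = 0.131).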

How the data were processed

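The authors filtered the reads by quality and adapter content before they computed the deposited FPKM. Per the labels, the submitters' processing notes name FastQC, HISAT2 and hg38. The annotation, the counting tool and the use of strand are not given in the sources used here, and the deposited tables hold no counts. The authors tested counts with DESeq, which FPKM do not allow. FPKM of 199167 transcripts were summed per gene and named by GENCODE 29, which held 198868 of them, 98.7% at the same position. Of the 106 transcripts of the members, 8 had another position, in NEAT1, LUCAT1 and MALAT1. limma 3.58.1 (R 4.3.3) tested log2(FPKM + 1) with trend over 16321 genes that reached FPKM 0.5 in 3 or more samples, with Benjamini-Hochberg adjustment over all of them. The fold change on this scale understates that of low genes. Transcripts were tested likewise. The gene fit was tested on simulated data. Depth was estimated from 14223 genes with 1 transcript of 600 to 5000 bases.

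Groups and replicate numbers came from the labels. The members and gene lists were chosen with earlier results of these data known, and the lists were written from general knowledge. Named were all members, their transcripts with at least 10% of the gene in a group, up to 3 genes per list with the smallest p, the nearest coding gene on each side, 3 nearest patterns for 2 members, and BRCA1. Some genes that this rule covers are not reported here. Other pseudocounts, filters, scalings, transcripts and left-out samples were tried as alternatives, and fragments per M were added after the data were seen. Intervals and depths cover counting error or the spread of these samples only.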

Additional observations from a re-analysis of the deposited data

How the results depend on the processing

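Values are log2 fold changes or counts of calls. NEAT1, MIR155HG, LUCAT1, MALAT1, PVT1, NORAD, GAS5 and DANCR kept their direction under every alternative run, and MIR31HG did too. MIR22HG reversed in fragments per M (-0.048, adjusted p = 0.874, limma with Benjamini-Hochberg). With that measure, added after the data were seen, 1 member was called higher and 0 lower, since NEAT1 (-0.68) and LUCAT1 (1.10) lost their calls. With the most abundant transcript in place of the gene, NEAT1 was -0.64, GAS5 1.00 (now called) and 0 members were called lower. With FPKM of at least 1 in every sample, LUCAT1 and MIR155HG were not tested and 0 members were called higher, and 311 genes were called higher in all. A pseudocount of 0.1 called 764 genes higher and 516 lower. It moved LUCAT1 to 2.18 and MIR155HG to 2.82, both still called. Scaling by the median of ratios put MALAT1 at 1.00, now called. The adjusted p alone called 2674 genes higher and 3090 lower, 6 members higher, and added MALAT1 (0.97), GAS5 (0.96), PVT1 (0.55) and NORAD (0.16).

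Leaving out each sample in turn gave MALAT1 0.94 to 1.03 and GAS5 0.92 to 1.02, called without OV-BRCA1 sample 1 and NC sample 1 respectively. Of the members' transcripts, 4 were called higher and 2 lower, and this became 1 to 3 higher and 1 to 2 lower without single samples. The cause was not tested.

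Replicate numbers did not pair the samples (correlation of deviations -0.02, 0.03 and 0.01 for the same number). With the replicate number as a block, 470 genes were called higher and 176 lower, 2 members higher and 1 lower, as before. DANCR (-0.62) then had an adjusted p of 0.0101 and NORAD 0.0959 (limma with Benjamini-Hochberg), neither called, and 0 member transcripts were called in either direction. Few estimated fragments stood behind MIR155HG and LUCAT1 in NC samples (13.0 to 25.8) and behind MIR31HG in all samples (29.2 to 40.1).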
